A study of Homo sapiens with 4 samples.

Results

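The collapsin response mediator protein (CRMP) family holds 5 genes in human, CRMP1, DPYSL2, DPYSL3, DPYSL4 and DPYSL5. They were taken by gene symbol from a table of read counts for 18917 genes, and all 5 were among the 13128 genes with enough counts to be tested. The family was chosen by the counts themselves, since DPYSL3 is among the largest rises in THUMPD1 knockout (KO) cells, so the difference of DPYSL3 from wild type is described here and not tested. The RNA came from HEK293 cells, a line from embryonic kidney, grown in DMEM with 10% serum and 2 mM glutamine. There were 2 libraries of wild-type (WT) and 2 of THUMPD1 KO cells, with no other treatment. THUMPD1 is the adapter protein that NAT10 needs to acetylate transfer RNA. The study's methods describe HEK-293T cells edited with CRISPR-Cas9 and sorted as single cells, so that the KO cells may be 1 clone and genotype and clone cannot be told apart. Nothing in the labels says whether the 2 libraries of a genotype came from separate cultures, and the spread between them may be technical.

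CRMPs are cytosolic proteins of developing neurons. They were found as the relay of semaphorin 3A, a secreted cue that collapses growth cones through neuropilin and plexin receptors. CRMPs bind tubulin and actin regulators, and phosphorylation by CDK5 and GSK3 loosens this binding. They resemble dihydropyrimidinase, an enzyme of pyrimidine breakdown, which gave 4 of the genes their symbols, but are not known for that activity. DPYSL2 encodes CRMP2, the member best known for promoting axon growth, DPYSL3 encodes CRMP4, DPYSL4 encodes CRMP3 and DPYSL5 encodes CRMP5.

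How far the members resemble each other bears on whether a read can be assigned to one of them. A stretch of the coding sequence that CRMP1 and DPYSL4 share is shown in 4 members, read from GENCODE 44 transcripts on GRCh38. Each sequence runs 5′ to 3′, and capitals mark bases that differ from DPYSL3.
CRMP1: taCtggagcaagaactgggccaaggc
DPYSL3: tattggagcaagaactgggccaaggc
DPYSL4: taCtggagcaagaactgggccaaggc
DPYSL5: taCtACCAcCagGactggTccCaCgc
CRMP1 and DPYSL4 differed from DPYSL3 at 1 of these 26 bases, and DPYSL5 at 10. Over the whole coding sequence DPYSL3 was identical to CRMP1 at 71.2% of aligned bases, to DPYSL2 at 70.7%, to DPYSL4 at 70.7% and to DPYSL5 at 61.8%. The longest run of identical bases that DPYSL3 shared with any other member was 23 bases. Of the 5443 stretches of 50 bases in the longest DPYSL3 transcript, 0 occurred in a transcript of another gene, on either strand. Across the family 0 such stretches were shared between members. The only shared ones were 13 in DPYSL2, found in PNMA2, which overlaps the start of DPYSL2 on the opposite strand, and 49 in DPYSL5, found in genes outside the family. A long noncoding RNA overlaps an end of DPYSL5 on the opposite strand by 44 exonic bases, and whether the counting used strand is not given in the sources used here.

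The libraries held 7875722 to 11362363 counts. Levels are given as CPM, the count of a gene scaled to the size of its library, with TMM factors from edgeR that rest on the bulk of genes staying level. As the labels have it, THUMPD1 was low in both KO libraries, with 71 and 58 counts against 356 and 468 in WT. Of 12 embryonic kidney genes 9 could be tested, among them SALL1 and SIX2, while PAX8 and OSR1 had too few counts. The summed level of these genes was 258 to 265 CPM in WT and 249 to 250 CPM in KO libraries. Of the 9 tested 1 was called higher and 0 lower, or 11.1% against 20.9% of all genes tested. The call, defined below, was that of LHX1, with 6 and 6 counts in WT and 37 and 27 in KO libraries.

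DPYSL3 lies on the minus strand of chromosome 5 (GRCh38, chr5:147390808-147510068), and its longest transcript has 14 exons and 5492 bases. Its reads numbered 62 (replicate 1) and 141 (replicate 2) in WT cells, and 460 (replicate 1) and 409 (replicate 2) in KO cells. On the CPM scale the WT libraries were at 8.09 and 12.8 and the KO libraries at 39.7 and 38.4. Both KO libraries lay far above both WT libraries, and the KO libraries were close together while the WT libraries were not. Mean levels were 10.5 ± 3.35 CPM for WT and 39.1 ± 0.94 CPM for KO (SD, n = 2 each), a fitted ratio of 3.64 and a log2 fold change of 1.87 (standard error 0.17). The higher WT value was 1.59 times the lower, a log2 difference of 0.66. Among 731 genes with a mean WT count within 1.2 times that of DPYSL3, 93.3% had a smaller difference between the WT libraries, and their median was 0.26. The size of the DPYSL3 difference therefore moved with the WT library used, and leaving out WT replicate 1 gave a log2 fold change of 1.61, leaving out WT replicate 2 one of 2.27. Of the 11113 genes averaging 5 CPM or more, DPYSL3 ranked 4 by log2 fold change, just below ARMCX4 (1.91) and just above TRIB2 (1.84), and among all genes tested it ranked 59. In bulk RNA, more KO cells with DPYSL3 RNA and more of it per KO cell cannot be told apart.

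**Figure D1:**
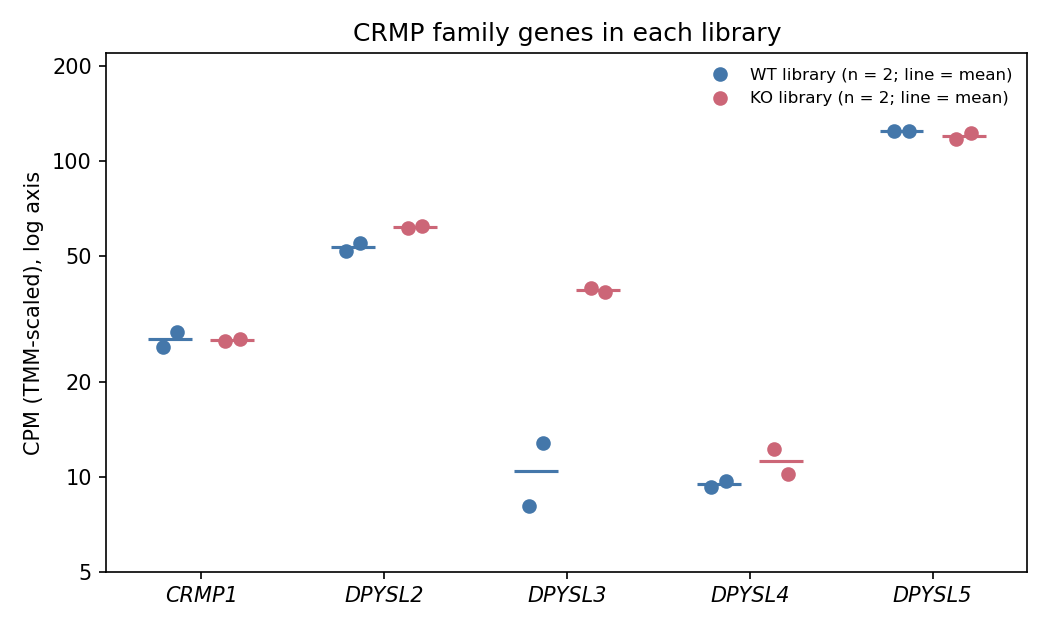
CPM of each CRMP family gene (log axis) in the 2 WT and 2 KO libraries, with a line at each mean. DPYSL3 moves from 8.09 and 12.8 CPM in WT to 39.7 and 38.4 CPM in KO cells, while the genotypes lie close together for the other 4 genes.

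The other 4 members were close to their WT levels in KO cells. A gene was called when its edgeR quasi-likelihood p, adjusted over all genes by Benjamini and Hochberg, was under 0.05. Of these 4 genes 0 were called, against 20.9% of the genes tested (8.79% higher and 12.1% lower). DESeq2 and limma-voom also called 0 of the 4, and over all 13128 genes tested they called 1755 and 2628. Unadjusted p-values under 0.05 numbered 1 of 4 in edgeR and in limma-voom, that of DPYSL2, and 0 in DESeq2. In edgeR at least 20.9% of all genes tested were under 0.05 unadjusted, since every called gene is. By the same rule at least 2628 genes were in limma-voom and 1755 in DESeq2. The genotypes did not overlap in CPM for 3 of the 4, against 60.4% of all genes tested. The KO libraries were above in 2 of the 4, against 30.4% of all genes, and below in 1, against 30.0%.

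DPYSL2, on chromosome 8 (chr8:26514031-26658178), had 398 and 605 counts in the WT pair and 712 and 662 in the KO pair. Its CPM were 51.9 and 55.1 against 61.5 and 62.2, so both KO libraries were above both WT libraries. The log2 fold change was 0.21 (95% interval 0.01 to 0.41), which missed the threshold (adjusted p = 0.139 from edgeR). With library size alone in place of TMM, DPYSL2 was called higher at 0.29 (adjusted p = 0.03 from edgeR), a scaling that moved the median of all genes from 0.01 to 0.09.

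DPYSL4, the shortest member, lies on chromosome 10 (chr10:132186948-132205759). Its counts were 71 and 107 for WT and 142 and 109 for KO, or 9.26 and 9.74 CPM against 12.3 and 10.2 CPM. Here too the KO libraries were above the WT libraries, by little in KO replicate 2. The log2 fold change of 0.24 had a 95% interval from -0.21 to 0.70 (adjusted p = 0.472 from edgeR), so that at this depth neither a fall to 0.863 times nor a rise to 1.62 times the WT level lies outside it.

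CRMP1, on chromosome 4 (chr4:5748084-5893086), had 198 and 316 counts in WT libraries, and 312 and 292 in KO libraries. The WT levels of 25.8 and 28.8 CPM lay on either side of the KO levels of 27.0 and 27.4 CPM. The log2 fold change was -0.01 (95% interval -0.29 to 0.27, adjusted p = 0.965 from edgeR).

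DPYSL5, on chromosome 2 (chr2:26847747-26950351), was the most abundant member, with 958 and 1373 counts for WT and 1365 and 1306 for KO. Both WT libraries were at 124.9 CPM, and the KO libraries at 118 and 123 CPM. The log2 fold change of -0.06 had the narrowest 95% interval of the tested members, -0.21 to 0.10 (adjusted p = 0.64 from edgeR). DPYSL3 was chosen for its rise, and its difference from the other members was not tested.

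**Figure D2:**
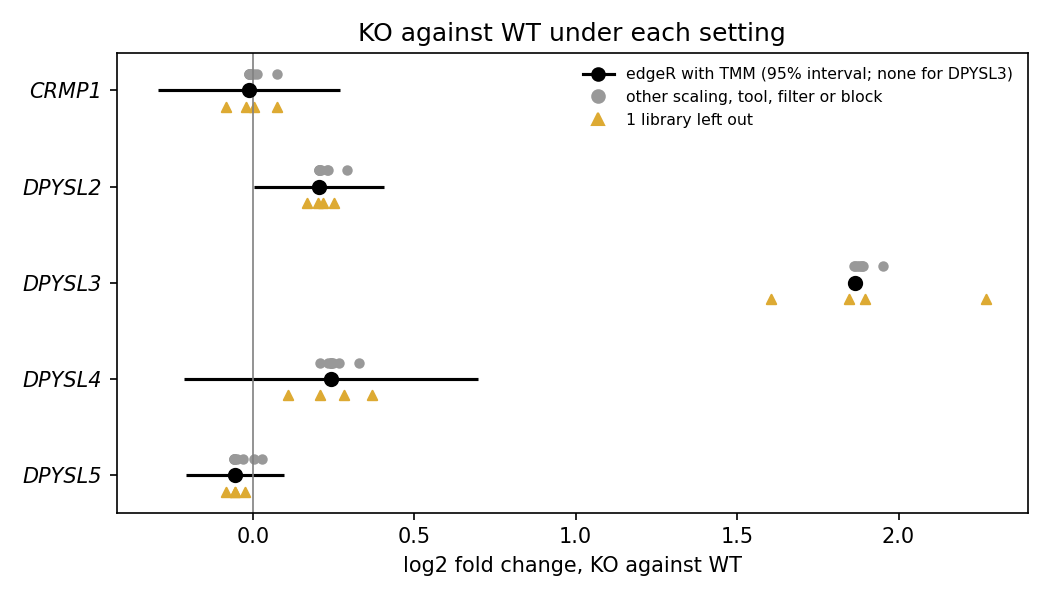
Log2 fold change of each member, KO against WT, by edgeR with TMM (black, with the 95% interval for the 4 tested genes), under other settings (grey) and with 1 library left out (triangles). DPYSL3 stays between 1.61 and 2.27, and the other members stay between -0.08 and 0.37.

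To compare the members with each other, CPM were divided by the length of the longest transcript in kilobases. On this scale DPYSL5 led in every library, with 24.1 CPM per kilobase in WT and 23.2 in KO cells, followed by DPYSL2 with 11.1 ± 0.464 and 12.9 ± 0.0971 and by CRMP1 with 8.60 ± 0.653 and 8.56 ± 0.104 (SD, n = 2 each). In WT cells DPYSL4 came next with 3.57 ± 0.127 CPM per kilobase, and DPYSL3 was lowest with 1.90 ± 0.611. In KO cells DPYSL3 stood at 7.11 ± 0.171 CPM per kilobase, above DPYSL4 at 4.22 ± 0.539. Neighbours in this order did not overlap in their libraries, but with lengths from the union of all exons DPYSL3 (5.44 CPM per kilobase) was above CRMP1 (4.63) in KO cells. The members of a genotype were measured in the same 2 libraries, and their order was not tested. For KO against WT, with 2 libraries on each side, the smallest two-sided p of an exact permutation test is 0.333. Among 13022 genes with a known length, the level per kilobase of DPYSL3 was at percentile 19.9 in WT and 47.3 in KO cells, and DPYSL5 at percentile 80.5 and 80.7.

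The make-up of the family changed accordingly. DPYSL3 made up 3.07% and 4.61% of the summed level per kilobase of the 5 genes in the WT libraries and 12.9% and 12.5% in the KO libraries. The mean share of DPYSL5 was 48.9% in WT and 41.5% in KO cells, of CRMP1 17.4% and 15.3%, of DPYSL2 22.6% and 23.0%, and of DPYSL4 7.23% and 7.54%. Shares sum to 100%, so they do not move independently. The summed level of the 5 genes was 49.3 ± 1.85 CPM per kilobase in WT and 56.0 ± 0.136 in KO cells, and without DPYSL3 it was 47.4 ± 1.24 and 48.9 ± 0.307 (SD, n = 2 each). Most of the gap between the genotypes in the sum was thus DPYSL3 RNA.

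**Figure D3:**
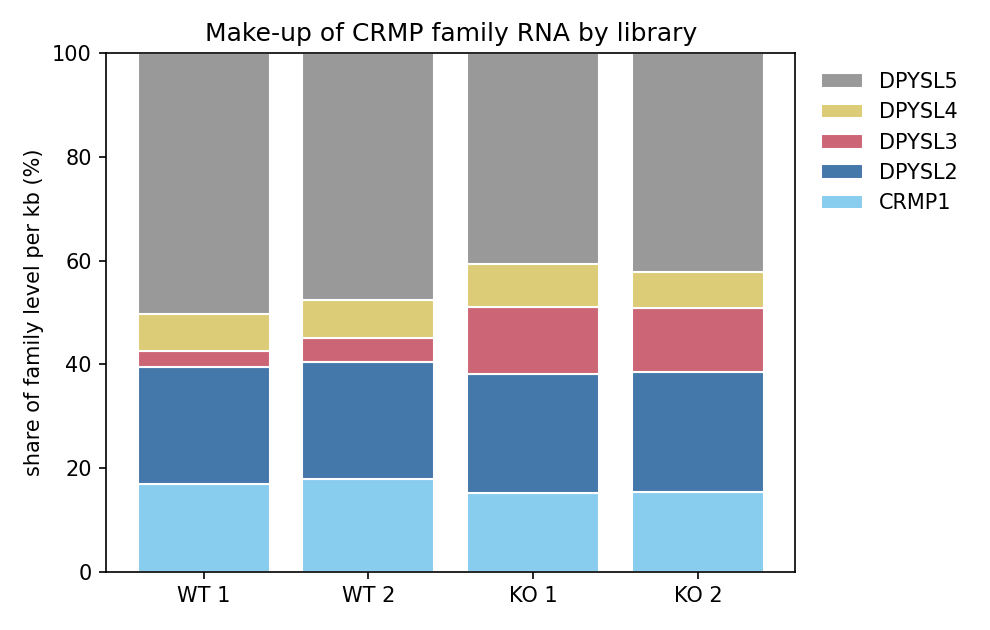
Share (percent) of each member in the summed level per kilobase of the 5 CRMP genes, for each library. The DPYSL3 band is 3.07% and 4.61% in the WT libraries and 12.9% and 12.5% in the KO libraries, and DPYSL5 is the widest band in all 4.

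The members lie on chromosomes 2, 4, 5, 8 and 10, whose tested genes had median log2 fold changes from 0.04 to 0.09. Chromosomes 16 and 22, where the medians were -0.44 and -0.42, hold none of them. The 5 nearest tested genes on each side of each member were then examined. Of these 50 genes 5 were called, or 10%, against 20.9% of all genes tested, 3 of them higher and 2 lower, with a median log2 fold change of -0.04.

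The nearest tested gene beyond the 5′ end of DPYSL3 was JAKMIP2, which encodes a protein that binds Janus kinases and microtubules, with its midpoint 0.234 Mb away. JAKMIP2 went from 42 and 43 counts to 135 and 96 counts, or 5.48 and 3.91 CPM against 11.7 and 9.01 CPM. Both KO libraries were above both WT libraries, and JAKMIP2 was called higher, its log2 fold change being 1.16 (standard error 0.28, adjusted p = 0.00392 from edgeR). The call was lost without KO replicate 1, at 0.96 (adjusted p = 0.0937 from edgeR).

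On the other side of DPYSL3, STK32A, a kinase gene, ends at 147387855, close to the 3′ end of DPYSL3. STK32A had 2 and 4 counts against 10 and 13 in KO libraries, too few for the filter. When all genes with a count were tested its log2 fold change was 1.67 (adjusted p = 0.314 from edgeR). STK32A and the families described next were singled out after the neighbours had been seen. Farther out, PPP2R2B, a regulatory subunit of protein phosphatase 2A, was at 0.04 (standard error 0.74), and RBM27 and LARS were at -0.14 and -0.17 on the log2 scale and were not called. The genes called beside the other members were CLU near DPYSL2 (0.58), BNIP3 (0.32) and EBF3 (-0.39) near DPYSL4, and TMEM214 near DPYSL5 (-0.60). The 4 genes encode, in this order, an extracellular chaperone, a mitochondrial mitophagy receptor, a transcription factor and a membrane protein of the endoplasmic reticulum. CLU, BNIP3 and EBF3 lost their call under DESeq2 (adjusted p from 0.0953 to 0.103). BNIP3 also lost it with any 1 library left out, and CLU and EBF3 without WT replicate 2 (0.45 and -0.35) and without KO replicate 2 (0.43 and -0.27).

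Genes of the same families stood beside several CRMP genes. A JAKMIP, a PPP2R2 and an STK32 gene lay within 1 Mb of each of CRMP1, DPYSL3 and DPYSL4. Beside CRMP1, JAKMIP1 had a log2 fold change of 0.14 (standard error 0.19), PPP2R2C of 0.10 (0.31) and STK32B of 0.89 (0.67). Beside DPYSL4, JAKMIP3 was at -1.11 (0.69), PPP2R2D at 0.04 (0.11) and STK32C at -0.12 (0.19). None of these 6 was called, and JAKMIP2 was the only called gene among the tested genes of these 3 families. STK32A had too few counts for the filter, and PPP2R2A was not analysed here. The difference between JAKMIP2 and its relatives was not tested.

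**Figure D4:**
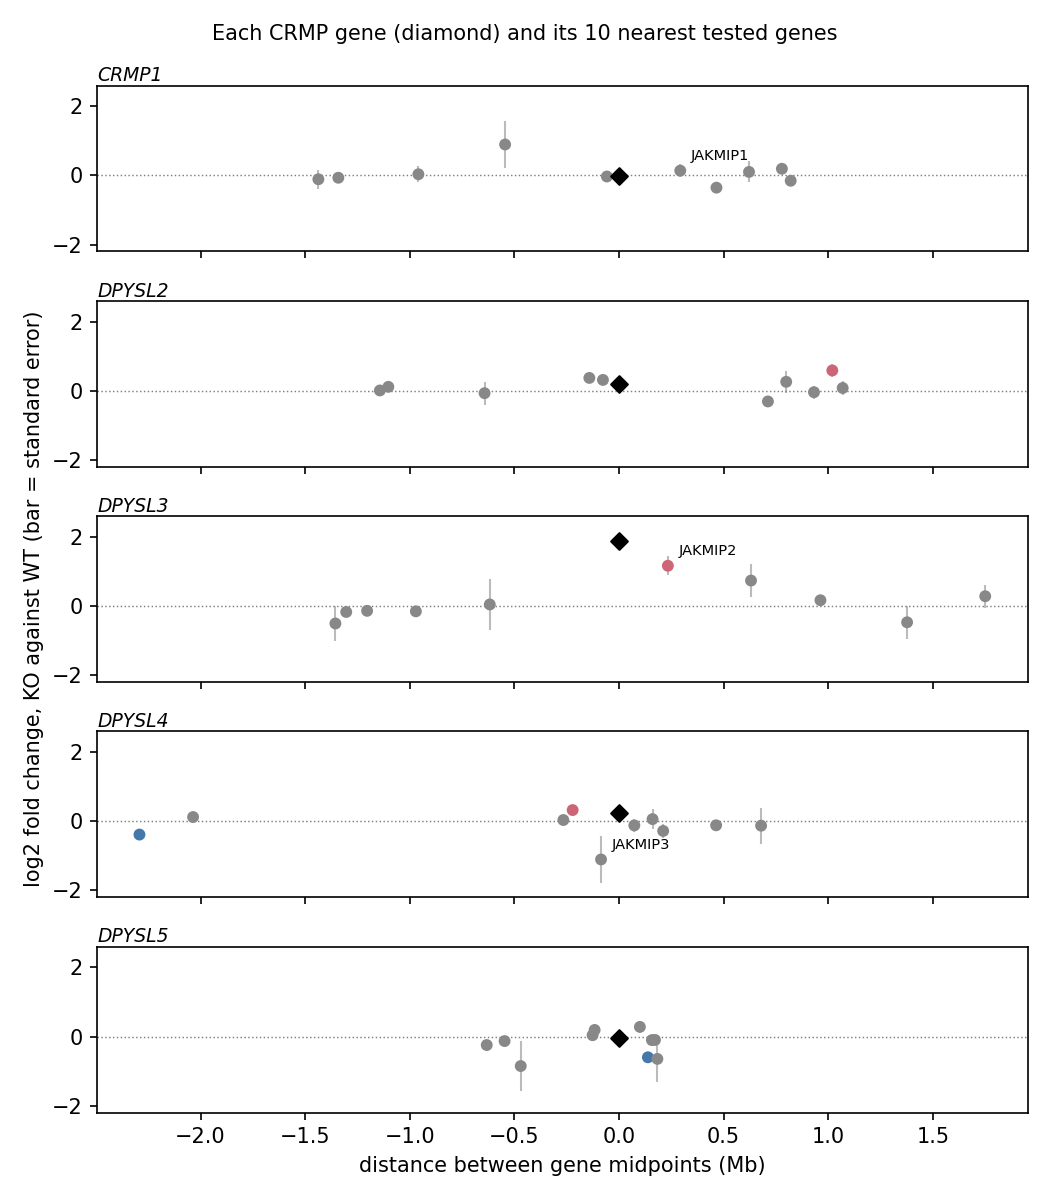
Log2 fold change (bars, standard error) of each CRMP gene (diamond at 0 Mb) and its 10 nearest tested genes by distance of gene midpoints, with genes called higher in red, called lower in blue and not called in grey. JAKMIP2, at 1.16, stands beside DPYSL3, while JAKMIP1 and JAKMIP3 stand beside CRMP1 and DPYSL4.

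Genes that act with the CRMPs were read from 5 lists. Semaphorin ligands and receptors had 2 of 16 tested genes higher and 2 lower, near the 20.9% called among all genes tested (8.79% higher and 12.1% lower), and a median log2 fold change of 0.00, against 0.01 over all genes. SEMA3A, the ligand that gave the family its name in signalling, was at 6.03 ± 0.225 CPM for WT and 8.27 ± 0.403 CPM for KO (SD, n = 2 each) and was not called (log2 fold change 0.45, adjusted p = 0.249 from edgeR). Its receptors NRP1 and PLXNA1 were at -0.05 and -0.07 and were not called either. SEMA3B rose from 3 and 8 counts to 28 and 25 counts (2.01), and PLXND1, a receptor of SEMA3E, rose by 0.36 on the log2 scale. SEMA3F fell by 0.72 and SEMA3G by 0.66. All 4 calls of this list were lost under DESeq2, and each was lost with at least 1 library left out, as for SEMA3B at 1.70 without WT replicate 1 and for PLXND1 at 0.24 without WT replicate 2.

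Of 16 tested kinases and phosphatases that act on CRMPs, 2 were higher and 1 lower, near the 20.9% called among all genes, with a median of 0.06. FYN, a Src-family kinase, rose by 0.31, and PPP1CA, a catalytic subunit of protein phosphatase 1, by 0.21. CAMK2B, a calcium-dependent kinase with 118 and 156 counts for WT and 89 and 55 for KO, fell by 1.19. CDK5, GSK3A and GSK3B, the kinases best known for acting on CRMPs, were at -0.18, 0.06 and 0.15 and were not called. With library size alone 5 of the list were called higher, and with DESeq2 0, so that FYN and PPP1CA lost their call with DESeq2. Over all 13128 genes tested 2081 and 643 were called higher in these settings, against 1154 in edgeR with TMM. FYN also lost it without WT replicate 2 (0.19) or KO replicate 1 (0.23), and PPP1CA without WT replicate 1 (0.15) or KO replicate 2 (0.15).

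Among 20 CRMP-binding and downstream genes, 0 were called higher by edgeR and 5 lower, against 8.79% and 12.1% of all genes tested, with a median of -0.02. FSCN1, which bundles actin in filopodia, fell by 0.72, and CAPN1, a calpain protease, by 0.44. FSCN1 lost its call under DESeq2 (adjusted p = 0.174), and leaving out WT replicate 2 or KO replicate 1 brought it to -0.46 and -0.47. KIF5C, a kinesin motor, fell from 62092 and 103572 counts to 9687 and 16330 counts. Its gene body holds a match of 95 bases to MT-RNR1, a mitochondrial ribosomal RNA, at 98.9% identity, and the part of such reads in its count was not tested. No copy of MT-RNR1 or MT-RNR2 of at least 80 bases at 90% identity was found in any of the 5 CRMP genes. Genes of the cytoskeletal relay such as CYFIP1 (-0.08), KLC1 (0.12) and RAC1 (0.15) were not called. With library size alone 4 of this list were called higher, and with limma-voom 3. Over all 13128 genes tested 2081 and 1279 were called higher there, against 1154 in edgeR with TMM.

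Of the relatives of dihydropyrimidinase, DPYS itself and UPB1 had too few counts to be tested, and DPYD, the first enzyme of pyrimidine breakdown, was at 0.75 (standard error 0.44) and was not called. Of 4 tested genes of this list 0 were called higher and 2 lower, against 8.79% and 12.1% of all genes tested. The 2 that fell belong to pyrimidine synthesis, CAD by 0.28 and DHODH by 0.65. UMPS, also of pyrimidine synthesis, was at -0.07 and was not called. DHODH lies on chromosome 16, whose median was -0.44, and the call of CAD was lost with library size alone, DESeq2 and limma-voom, without WT replicate 2 (-0.15) and without KO replicate 2 (-0.23).

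The list of growth cone and early neuron genes, in which CRMPs are usually counted, was split, with 4 of 24 tested genes higher and 7 lower, or 45.8% called against 20.9% of all genes tested (8.79% higher and 12.1% lower), and a median of -0.03. NCAM1, a neural adhesion molecule, rose from 281 and 414 counts to 902 and 802 counts, a log2 fold change of 1.04 (standard error 0.10). NEFL, a neurofilament subunit, rose by 0.34, STMN1, which destabilises microtubules, by 0.23, and SNAP25, a synaptic fusion protein, from 5 and 3 counts to 23 and 21 counts (2.15). The call of SNAP25 was lost with limma-voom, with no filter and without WT replicate 2 (1.58), that of NEFL without KO replicate 2 (0.28), and that of STMN1 without WT replicate 2 (0.18) or KO replicate 1 (0.22). NEFM, the partner of NEFL, fell from 1416 and 1944 counts to 305 and 245 counts, by 2.87 on the log2 scale. MAPT and MAP1B, both microtubule-associated, fell by 0.69 and 0.43. MARCKS, UCHL1 and SOX4 fell as well. DCX, which like the CRMPs marks migrating neurons, had 0 counts in both WT libraries and 8 and 2 in the KO libraries. Without WT replicate 1 the list had 8 genes higher, and with any other library left out 2.

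**Figure D5:**
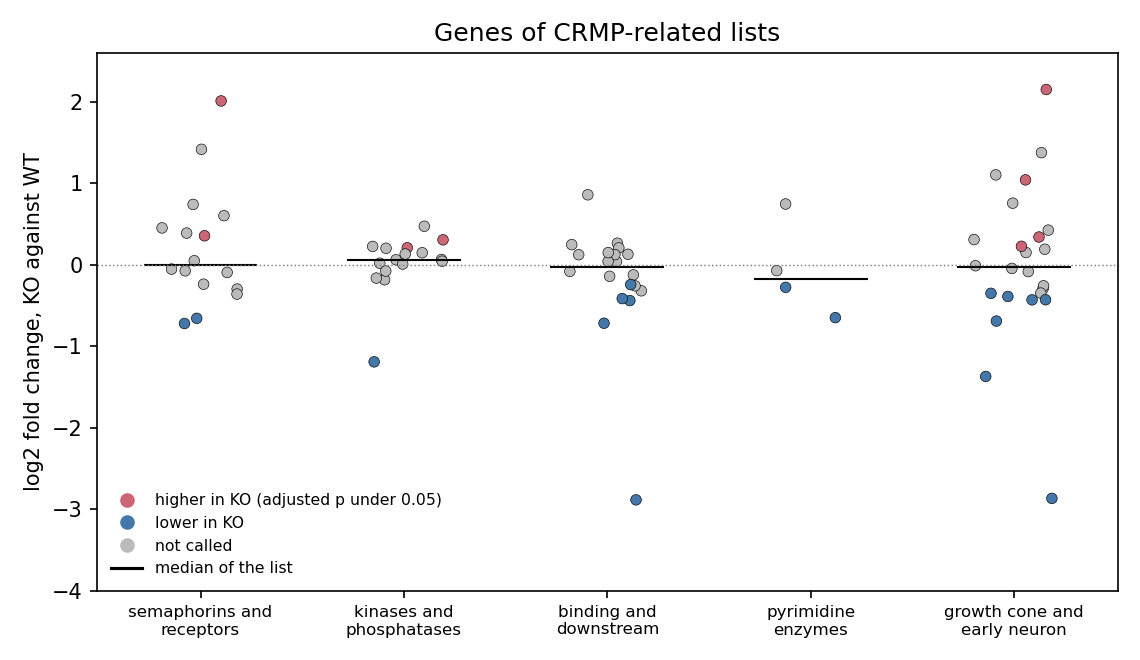
Log2 fold change, KO against WT, of each tested gene in the 5 lists of CRMP-related genes, with the list median as a line. Medians lie between -0.17 and 0.06, and the list of growth cone and early neuron genes holds called genes on both sides.

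Summed markers of neurons, 9 of 12 of them tested, were at 338 to 368 CPM in WT and 225 to 228 CPM in KO libraries. Of the 9 tested 2 were called higher and 1, NEFM, lower, or 33.3% against 20.9% of all genes tested. ELAVL4 was at 3 counts or fewer in every library. Without NEFM the sum was 161 to 183 CPM in WT and 198 to 205 CPM in KO libraries. NEFM was set aside after its fall had been seen. Among the rest, mean CPM of NEFL went from 60.5 to 76.6 and of INA, not called, from 44.1 to 54.2. SYP, TUBB3 and RBFOX3 had log2 fold changes below 0 and were not called. Markers of glia summed to 12.6 to 13.3 CPM in WT and 7.61 to 8.55 CPM in KO libraries. Of 2 tested glial markers 1, MBP, was called lower, or 50% against 20.9% of all genes tested. Mean CPM of MBP was 6.97 in WT and 2.57 in KO cells, and OLIG2, at -0.05 on the log2 scale, was not called. Fibroblast markers summed to 42.6 to 42.9 CPM in WT and 39.8 to 43.7 CPM in KO libraries. Those of blood summed to 13.0 to 14.7 and 8.38 to 9.11 CPM, with HBB and HBA1 at 0. Endothelial markers stayed at or below 2.61 CPM and hepatocyte markers at or below 0.432 CPM in every library. The part of other cell types in the DPYSL3 difference was not tested.

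Of the genes averaging 5 CPM or more, those most like DPYSL3 across the 4 libraries were ZNF83, ACSBG2, ARMCX4, ZFP112 and GNAO1. Likeness was the Euclidean distance between log2 CPM centred on each gene's mean, and it was 0.292 for ZNF83 and 0.548 to 0.629 for the other 4, against a median of 2.00 over 11112 genes. The distance takes in the gap between the WT libraries as well as that between the genotypes. ZNF83, for example, went from 26 and 50 counts to 165 and 184. The other CRMP genes were at distances from 1.75 to 2.05, with DPYSL4 nearest, at rank 1811.

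The study set leucine codons rich in U and A (CUU, CUA and both that begin with UU) apart from CUC and CUG. It did so for ribosome stalling and translation efficiency, and a link of codon use to the RNA levels here was not tested. Codon use is a feature the choice of members did not draw on. In the longest coding sequence of DPYSL3, 9 of 40 leucine codons were rich in U and A, or 22.5%. The share was 24.4% in DPYSL5, 25.6% in DPYSL2, 27.0% in DPYSL4 and 34.1% in CRMP1. All 5 were below the median of 41.2% over 12966 tested genes, and lay at percentiles 24.0 to 41.1. The coding sequences of all 5 had a GC content above most genes, from percentile 64.2 for DPYSL3 to 81.2 for DPYSL4. The only UUA codons were 2 each in CRMP1, DPYSL3 and DPYSL5.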

How the data were processed

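Total RNA of 2 WT and 2 THUMPD1 KO samples of HEK293 cells was sequenced from Zymo-Seq RiboFree libraries, per the labels. What the authors deposited are raw counts by gene symbol, all whole numbers, with no normalization. The submitters' processing notes name hg19. For RNA-seq the methods of the paper give HEK-293T cells, 3 samples per genotype, an Illumina kit, and STAR and RSEM on GRCh38, so these 4 libraries may not be that experiment, and the aligner and counter behind this table are not given in the sources used here. The authors also deposited their own comparison of KO with WT (means, fold changes and p-values), which was not used.

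Genes reaching 1 CPM in 2 or more libraries were fitted with TMM factors by glmQLFit and tested by glmQLFTest of edgeR 4.0.16 (R 4.3.3), and p-values were adjusted over all 13128 by Benjamini-Hochberg with a threshold of 0.05. The standard error is the log2 fold change divided by the root of the F statistic. DESeq2 1.42.0 and limma 3.58.1 (voom with quantile normalization, as in the methods) were alternatives, beside other scalings and filters, the replicate number as a block, and leaving out each library. The fit was tested on simulated data. Intervals cover the model's spread between 2 libraries only.

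Members, lists and tests were chosen with earlier results of these data known. Named genes are the members, THUMPD1, the 4 largest called rises and falls of each list, called neighbours, and the 5 genes most like DPYSL3. Others were chosen after their values were seen or serve as known examples of a list. GENCODE 44 (GRCh38) placed 17318 genes by symbol and 1206 by an older symbol or synonym. Lengths, codons and sequences come from that annotation, and copies were sought with blastn 2.17.0. PPP2CA of the list of kinases and phosphatases was not analysed here. A few genes that the rule names are not reported here. Marker lists were those of embryonic kidney, neurons, glia, fibroblasts, blood, endothelium and hepatocytes. Python 3.11.15 served for tables and figures.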

Additional observations from a re-analysis of the deposited data

How the results depend on the processing

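Across the 12 alternatives DPYSL3 ran from 1.86 to 1.95 with other scalings, tools, filters and the replicate block. With 1 library left out it ran from 1.61 to 2.27 (lowest without WT replicate 1, highest without WT replicate 2). DPYSL3 was chosen for its rise in these same counts, so its direction under these refits is no test of the rise. Its share of the family was 8.86 percentage points higher in KO cells, 10.4 points when counts were not divided by length, and from 8.09 to 9.63 points with 1 library left out. DPYSL2 gained a call with library size alone (0.29). CRMP1, at -0.01, changed sign with library size alone (0.074) and upper-quartile scaling (0.014), and ran from -0.082 to 0.074 with 1 library left out, above 0 without WT replicate 2 and, at 0.0051, without KO replicate 1. With limma-voom CRMP1 and DPYSL5 were just above 0, at 0.0025 and 0.0032. DPYSL5, at -0.06, was at 0.029 with library size alone. DPYSL4 was called under none of the 12. The causes were not tested.

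The number of genes called, 2748 (1154 higher and 1594 lower), was 1755 with DESeq2, 1594 at an adjusted p of 0.01, which is a stricter threshold, and from 1617 (without KO replicate 1) to 2599 with 1 library left out. With library size alone the split was 2081 higher and 1158 lower. In fits without a library, the lone library of its genotype is assumed to vary like the other genotype. With the replicate number as a block 3222 genes were called and no member changed its call. Differences between replicates 1 and 2 in WT and in KO correlated at 0.02 over genes. Whether samples of the same replicate number share a culture or batch is not given in the labels. Alternatives for the lists and named genes were chosen after seeing the data. Low counts limit LHX1, SEMA3B, SNAP25, STK32A and DCX most.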
